A study of Mus musculus with 12 samples.

Results

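The genes described here make up the machinery with which a cell shows peptides on MHC class I molecules: H2-K1 and H2-D1 (classical heavy chains), H2-T23 (the nonclassical heavy chain Qa-1), B2m (the light chain), Tap1 and Tap2 (the peptide transporter), Tapbp (tapasin) and Nlrc5 (a transactivator). The 8 genes were taken by their symbol or current alias on the array, and each had 1 transcript cluster, out of 65956 transcript clusters in all. The list of genes was drawn up with earlier results of these data known. They were read in monocytes and macrophages purified by magnetic separation from the bone marrow of Rag2-/-gamma c-/- mice on a BALB/c background, a strain that lacks its own T, B and NK cells. The mice in the groups that carried leukemia had received MEC1, a human cell line derived from a chronic lymphocytic leukemia, by intravenous injection. Groups of 3 mice were taken at 21 days with MEC1 (11 weeks old, early leukemia), at 21 days without MEC1 (age-matched), at 31 days with MEC1 (13 weeks old, late leukemia) and at 31 days without MEC1 (age-matched), each mouse on 1 array. All 4 groups carried the same Rag2 and gamma c deletions, MEC1 is a single cell line, and each sample carries a mouse number of its own, so the replicates were separate animals.

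Class I molecules are built in the endoplasmic reticulum, where a heavy chain pairs with B2m, is held by chaperones and receives a peptide cut by the proteasome and carried in by the TAP transporter. Tapasin bridges the waiting heavy chain to TAP and helps select the peptide, and complete molecules travel to the surface for CD8 T cells and NK cells to read. The genes are switched on together by interferon through IRF factors, by NF-kB, and by NLRC5 acting at the conserved SXY module of their promoters. In monocytes and macrophages the pathway is active at rest and is known to be raised further by interferon gamma.

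The promoters of the heavy chains that stayed closest to each other, H2-K1 and H2-D1, and of the members that fell at 31 days, H2-T23 and Tapbp, are shown because they carry different sets of these elements. Sequences are from RefSeq (GRCm38.p6, a C57BL/6J reference, whose class I haplotype differs from that of BALB/c), run from 250 bases before to 50 bases after the start site, 5′ to 3′, and are written on the strand of the gene. Windows were held for 6 of the 8 genes, not for Tap2 and Nlrc5, and 1 of 2 windows listed for H2-K1 is shown. Capitals mark matches on either strand to AANNGAAA (an IRF core), GGGNNTTNC (most of an NF-kB site), TGACG (the core of the X2 box) and ATTGG (the Y box).
H2-K1 (chr17:34000298-34000597, minus strand): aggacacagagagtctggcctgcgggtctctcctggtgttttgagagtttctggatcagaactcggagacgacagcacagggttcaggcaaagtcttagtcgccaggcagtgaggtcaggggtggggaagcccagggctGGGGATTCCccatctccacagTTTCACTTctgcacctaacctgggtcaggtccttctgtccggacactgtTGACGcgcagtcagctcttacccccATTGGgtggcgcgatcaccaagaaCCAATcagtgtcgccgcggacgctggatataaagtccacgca
H2-D1 (chr17:35262844-35263143, plus strand): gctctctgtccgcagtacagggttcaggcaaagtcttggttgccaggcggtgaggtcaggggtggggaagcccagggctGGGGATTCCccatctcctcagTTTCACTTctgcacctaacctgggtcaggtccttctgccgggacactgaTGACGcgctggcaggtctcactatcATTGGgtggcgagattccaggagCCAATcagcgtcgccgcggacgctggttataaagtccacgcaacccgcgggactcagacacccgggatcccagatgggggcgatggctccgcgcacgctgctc
H2-T23 (chr17:36032652-36032951, minus strand): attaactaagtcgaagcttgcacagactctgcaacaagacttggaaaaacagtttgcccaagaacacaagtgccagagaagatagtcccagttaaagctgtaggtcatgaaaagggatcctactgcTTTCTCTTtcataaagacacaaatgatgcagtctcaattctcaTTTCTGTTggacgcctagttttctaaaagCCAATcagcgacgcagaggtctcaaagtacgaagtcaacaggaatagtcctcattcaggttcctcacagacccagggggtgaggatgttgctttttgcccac
Tapbp (chr17:33919228-33919527, plus strand): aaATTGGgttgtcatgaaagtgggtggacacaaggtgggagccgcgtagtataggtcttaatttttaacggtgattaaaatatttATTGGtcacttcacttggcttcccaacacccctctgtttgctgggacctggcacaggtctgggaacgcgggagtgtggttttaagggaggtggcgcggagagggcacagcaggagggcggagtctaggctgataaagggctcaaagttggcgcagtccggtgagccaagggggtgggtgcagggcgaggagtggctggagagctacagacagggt
No 2 of the capitalised matches overlapped in these windows. The H2-K1 and H2-D1 windows were identical at 89.5% of 239 aligned bases, and each held 1 IRF core, 1 NF-kB site, 1 X2 core and 2 Y boxes. H2-T23 held 2 IRF cores and 1 Y box, with no match to the other motifs, and Tapbp held 2 Y boxes alone. B2m, which is not printed, held 1 IRF core, 1 NF-kB site, 2 X2 cores and 1 Y box, and Tap1 held 1 X2 core and 1 Y box. These letters are common: the IRF core matched in 24.2% of 27025 RefSeq promoter windows of this length, the NF-kB letters in 15.1%, the X2 core in 21% and the Y box in 37.9%. The letters were chosen with the sequences in view, and a match is a description of the sequence. B2m, which held all 4 kinds of match, also read lower at 31 days (-1.17), without passing. Any relation of the matches to the changes was not tested. The Tap1 window shares 275 bases, on the opposite strand, with that of Psmb9, an immunoproteasome subunit gene that starts next to it.

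Values are log2 intensities as deposited, so a difference of 1 is a 2-fold difference in signal, and levels of different clusters do not rank transcript abundance, because probes differ in response; brightness is used below to describe the range of the array alone. All 8 genes lay above the median of their array on all 12 arrays and passed the filter on dim clusters. B2m averaged 15.9 over the 12 arrays, and 0.784% of clusters were brighter. Its highest value, 16.6, stood below the highest value on any array, which was 19.41 to 19.58 with MEC1 and 19.88 to 19.93 without MEC1, so no member sat at the top of the measured range, although a compressed response at such brightness was not tested. Nlrc5 was dim, with a mean of 4.57, and on each array it exceeded 30.9% to 57.2% of the 5222 negative-control features. The H2-T23 cluster is also annotated to a pseudogene transcript, C920025E04Rik, and the Nlrc5 cluster also to Mir7072, so the signals of the annotated transcripts cannot be told apart there. Class I genes are close in sequence, so H2-K1 and H2-D1 probes may share signal.

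The arrays differed as a whole between the groups, and this touches every result below. The level of the spiked hybridisation controls was 11.8 to 13.18 with MEC1 and 10.47 to 10.87 without MEC1, which did not overlap (exact permutation test stratified by day, two-sided p = 0.005, the smallest p this design gives). The median over 30 mitochondrial clusters was 6.14 to 8.71 with MEC1 and 8.64 to 9.2 without MEC1. The third array with MEC1 at 31 days stood apart, with the highest control level (13.18) and the lowest mitochondrial median (6.14). Where it moved the 31 day change of a member, pathway list or passing pathway gene by over 1.5 times, or ended a call, values without it are given. For the marker lists no changes without it are given, so their dependence on this array is not shown. Monocyte and macrophage markers were bright in all samples, with a mean over the 9 measured genes of 10.97 to 11.47 with MEC1 and 11.99 to 12.19 without MEC1 at 21 days, and 9.74 to 11.31 with MEC1 and 12.17 to 12.19 without MEC1 at 31 days. Neutrophil and erythroid markers were bright as well, and the erythroid mean over 9 genes at 31 days was 5.21 to 6.12 with MEC1 and 10.89 to 11.45 without MEC1. In these purified pools, fewer cells of a type and less RNA per cell cannot be told apart.

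At 21 days none of the 8 genes passed the test between mice with and without MEC1 (limma, Benjamini-Hochberg adjusted p under 0.05), and 2 of 8, H2-T23 and Nlrc5, had an unadjusted p under 0.05. Of all 37240 clusters tested, 4.34% passed at this time, 2.51% lower and 1.83% higher (681 higher and 934 lower, turned to 608 and 458 after quantile normalization and widened to 444 and 1461 after centring). The groups did not overlap for 1 of the 8, Nlrc5, which was higher, beside 28.5% of all clusters in either direction and 14.9% higher. The median change over the 8 genes was -0.24, beside 0.02 over all clusters tested, and 7 of 8 changes were negative. Clusters within 0.5 log2 of each gene's level without MEC1 had medians at 21 days from -0.42 near Tapbp to -0.05 near B2m. Near Nlrc5 the median was 0.17. With arrays weighted by their quality 5 of the 8 passed, beside 15923 of all 37240 clusters under that setting. No other alternative called a member at 21 days.

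At 31 days 3 of the 8 genes passed: H2-T23 and Tapbp fell and Nlrc5 rose on the deposited scale. The background was broad, since 43.8% of all clusters tested passed, 21.1% lower and 22.6% higher, so a share of 3 in 8 is near what the whole array gave. The median change over the 8 genes was -0.50, beside 0.04 over all clusters. None of the 3 calls held after quantile normalization of the arrays, nor with a covariate for the level of the hybridisation controls, and values under those settings are given with each gene. The groups did not overlap for 5 of 8 genes, H2-T23, B2m, Tap2 and Tapbp lower and Nlrc5 higher, while 59.6% of all clusters were free of overlap, 28.4% lower and 31.2% higher.

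**Figure D1:**
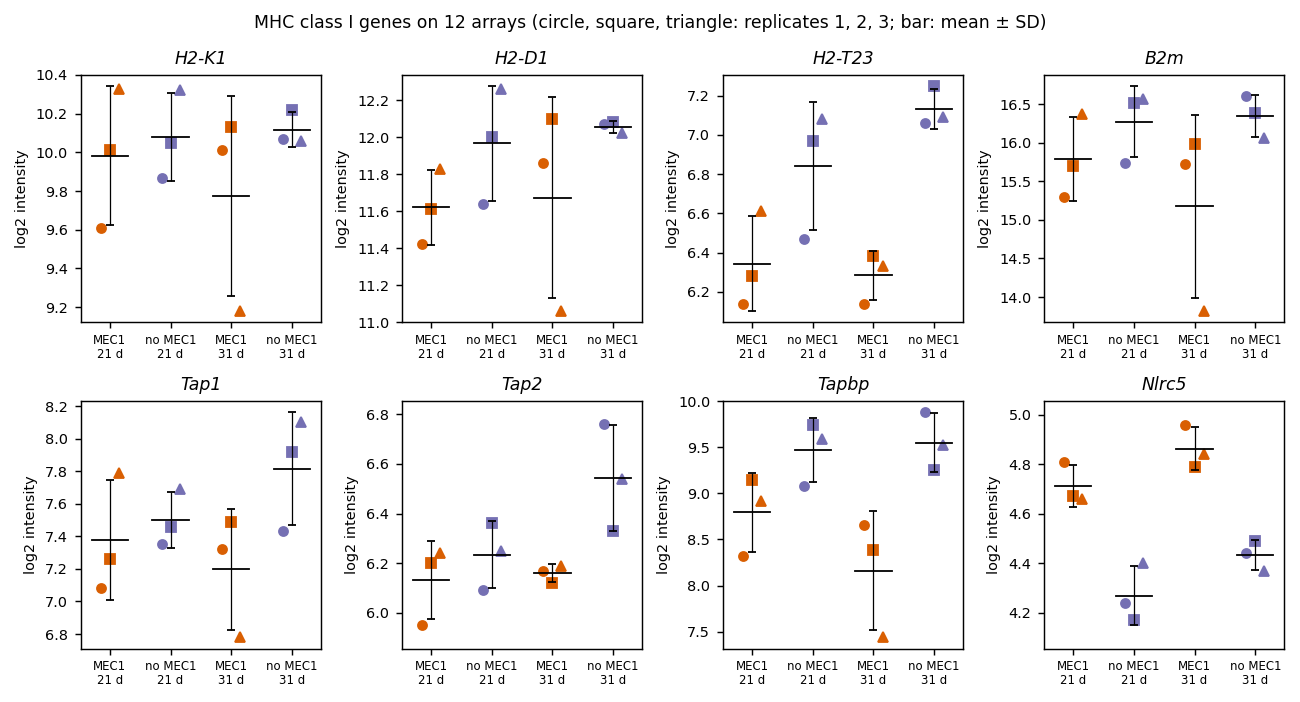
Log2 intensity of the 8 genes on each of the 12 arrays, 1 panel a gene with its own vertical scale; points are mice, lines are means and bars are SD (n = 3). The array that lies lowest with MEC1 at 31 days for H2-K1, H2-D1, B2m, Tap1 and Tapbp is the third replicate, and the groups do not overlap at 31 days for H2-T23, B2m, Tap2, Tapbp and Nlrc5.

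H2-K1, which encodes the classical heavy chain H-2K, read 9.61, 10.01 and 10.33 with MEC1 at 21 days, against 9.87, 10.05 and 10.32 without MEC1. By 31 days the readings were 10.01, 10.13 and 9.18 with MEC1, against 10.07, 10.22 and 10.06 without MEC1. The groups overlapped on both days. The change was -0.10 ± 0.261 (SE, adjusted p = 0.838) at 21 days and -0.34 ± 0.261 (adjusted p = 0.294, 95% interval -0.92 to 0.23) at 31 days, where it was -0.05 without the third array. It took the opposite sign, 0.30, after quantile normalization.

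H2-D1, the other classical heavy chain gene of this set, read 11.42, 11.61 and 11.83 with MEC1 at 21 days, against 11.64, 12 and 12.26 without MEC1. Its values at 31 days were 11.86, 12.1 and 11.06 with MEC1, against 12.07, 12.08 and 12.02 without MEC1. The groups overlapped on both days, with 1 low array with MEC1 at 31 days. The change at 31 days was -0.38 ± 0.256 (SE, adjusted p = 0.235, 95% interval -0.95 to 0.18), and -0.08 without that array. At 21 days it was -0.35 (adjusted p = 0.425).

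H2-T23 encodes the heavy chain of Qa-1, which presents a narrow set of peptides, including leader peptides of classical class I chains, to the NKG2A receptor of NK cells. It read 6.14, 6.28 and 6.61 with MEC1 at 21 days, against 6.47, 6.97 and 7.08 without MEC1, with the highest MEC1 mouse above the lowest mouse without MEC1. At 31 days it read 6.14, 6.38 and 6.33 with MEC1, against 7.06, 7.25 and 7.09 without MEC1, and the groups were far apart relative to their spread. The change at 31 days was -0.85 ± 0.188 (SE, adjusted p = 0.00596), 1.8-fold lower with MEC1, with a 95% interval of -1.26 to -0.44. It passed with each of the 6 arrays of the comparison left out in turn (-0.90 to -0.78), but was -0.36 (adjusted p = 0.171) after quantile normalization and -0.99 (adjusted p = 0.622) with the control covariate. At 21 days the change was -0.50 ± 0.188 (adjusted p = 0.149).

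B2m encodes the light chain that all class I heavy chains, classical or not, need to fold. It read 15.3, 15.7 and 16.37 with MEC1 at 21 days, against 15.74, 16.51 and 16.57 without MEC1, and the groups overlapped. Its 31 day values were 15.72, 15.98 and 13.82 with MEC1, against 16.6, 16.38 and 16.06 without MEC1. All 3 mice with MEC1 lay below the others at 31 days, the third by more than 2 units below the lowest mouse without MEC1. The change at 31 days was -1.17 ± 0.504 (SE, adjusted p = 0.0786, 95% interval -2.28 to -0.06), which did not pass. It was -0.50 (adjusted p = 0.28) without the third array, and -1.58 (adjusted p = 0.0379), which passed, without the second. At 21 days it was -0.48 ± 0.504 (adjusted p = 0.57).

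Tap1 and Tap2 encode the subunits of the transporter that pumps peptides into the endoplasmic reticulum. Tap1 read 7.08, 7.26 and 7.79 with MEC1 at 21 days, against 7.35, 7.46 and 7.69 without MEC1, and 7.32, 7.49 and 6.78 with MEC1 at 31 days, against 7.43, 7.92 and 8.1 without MEC1. The groups overlapped on both days. Its change was -0.12 ± 0.253 (SE, adjusted p = 0.783) at 21 days and -0.62 ± 0.253 (adjusted p = 0.0669) at 31 days. Without the first mouse of the group without MEC1 the change at 31 days was -0.81 (adjusted p = 0.0397), which passed; without the third array with MEC1 it was -0.41, and after quantile normalization 0.00.

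Tap2 read 5.95, 6.2 and 6.24 with MEC1 at 21 days, against 6.09, 6.36 and 6.25 without MEC1. At 31 days it read 6.17, 6.12 and 6.19 with MEC1, a tight group, against 6.76, 6.33 and 6.54 without MEC1. The 31 day groups did not overlap, and the change of -0.38 ± 0.152 (SE, adjusted p = 0.0612) did not pass. It passed without the second mouse of the group without MEC1 (-0.49, adjusted p = 0.0494), and was 0.02 after quantile normalization. At 21 days it was -0.10 ± 0.152 (adjusted p = 0.693).

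Tapbp, the gene of tapasin, read 8.32, 9.14 and 8.92 with MEC1 at 21 days, against 9.08, 9.74 and 9.59 without MEC1. At 31 days it read 8.66, 8.39 and 7.44 with MEC1, against 9.88, 9.25 and 9.52 without MEC1, and every mouse with MEC1 was lower. Its change at 31 days had the largest size of the 8, -1.39 ± 0.334 (SE, adjusted p = 0.00871, 95% interval -2.12 to -0.65), 2.62-fold lower with MEC1. It passed with each of the 6 arrays left out, and was -1.03 (adjusted p = 0.0273) without the third array with MEC1. After quantile normalization it was -0.72 (adjusted p = 0.0722), and with the control covariate it was 0.51 (adjusted p = 0.898), of opposite sign. The change at 21 days was -0.68 ± 0.334 (adjusted p = 0.248).

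Nlrc5, the transactivator that class I genes share, was the member with higher values in mice with MEC1. It read 4.81, 4.67 and 4.66 with MEC1 at 21 days, against 4.24, 4.17 and 4.4 without MEC1, and 4.96, 4.79 and 4.84 with MEC1 at 31 days, against 4.44, 4.49 and 4.37 without MEC1. The groups did not overlap on either day. The change was 0.44 ± 0.126 (SE, adjusted p = 0.0727) at 21 days and 0.43 ± 0.126 (adjusted p = 0.0201) at 31 days, 1.35-fold higher with MEC1. At 31 days it lost the threshold when any of 3 of the 6 arrays was left out: 0.43 (adjusted p = 0.0505) without the first and 0.40 (adjusted p = 0.066) without the third mouse lacking MEC1, and 0.38 (adjusted p = 0.0519) without the first mouse with MEC1. The gene is dim, and dim clusters as a whole read higher with MEC1 at 31 days: the median change of the 10433 clusters within 0.5 of its level was 0.29, and 28% of them passed in that direction. Its change was 0.00 (adjusted p = 1) once arrays were centred on their medians, 0.15 (adjusted p = 0.443) after quantile normalization, 0.52 (adjusted p = 0.712) with the control covariate and 0.41 (adjusted p = 0.00785) with array weights, so its size rested on the scaling.

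The other genes were read in the same way against clusters of like brightness in mice without MEC1. At 31 days clusters within 0.5 of H2-K1 had a median change of -1.02, and 57.1% of them passed lower, while H2-K1 itself was -0.34; clusters near H2-D1 had the same median, with 53% lower, while H2-D1 was -0.38. H2-K1 and H2-D1 were thus less negative than most clusters of their brightness. Tapbp (-1.39) and H2-T23 (-0.85) were lower than the medians at their levels, -0.99 with 57.4% lower and -0.68 with 45.7% lower, and both medians lay within the 95% interval of the gene. For B2m (-1.17), the 146 clusters near it had a median of -0.39, and 29.5% passed lower. For Tap1 (-0.62) and Tap2 (-0.38) the medians were -0.82 and -0.49, with 54.7% and 35.5% lower.

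**Figure D2:**
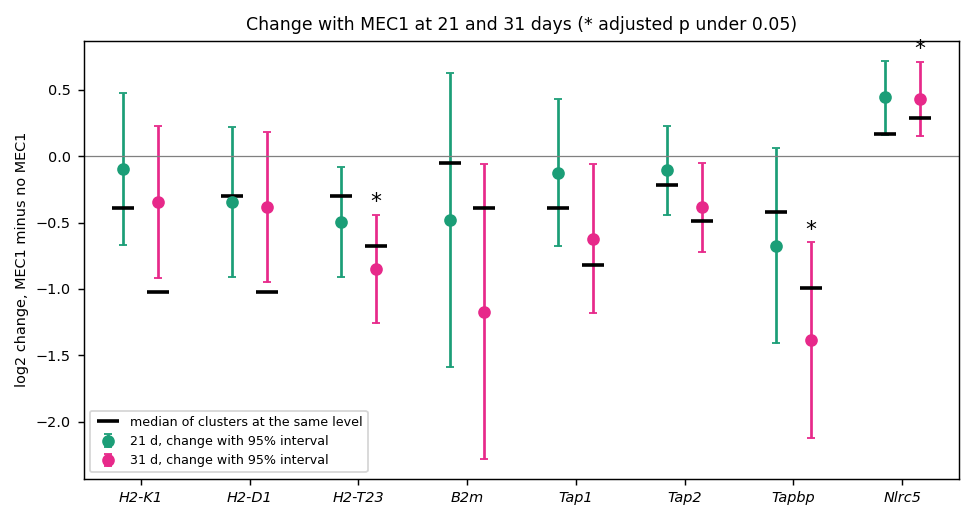
Log2 change (mice with MEC1 minus mice without MEC1, vertical axis) of each gene at 21 and 31 days with its 95% interval; black bars give the median change of clusters within 0.5 log2 of the gene's level without MEC1. At 31 days H2-K1 and H2-D1 lie above the bar, and the bars for H2-T23, Tapbp and Nlrc5, the members marked as passing, lie inside the intervals.

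How the arrays were scaled moved the members as a group. Centring each array on its own median shifted the median of all clusters at 31 days to -0.39. Of the members 5 of 8 then passed, all lower: H2-T23 (-1.28), B2m (-1.60), Tap1 (-1.05), Tap2 (-0.81) and Tapbp (-1.82). The background moved the same way: 16524 of 37240 clusters passed after centring, 13739 lower and 2785 higher. The median of the 8 genes was then -0.93. Centring subtracts 1 value from a whole array, so it cannot change the distance between that median and the median of all clusters. After quantile normalization, which gives all arrays the same distribution, none of the 8 passed, the median of the 8 was 0.01, beside -0.06 over all clusters, and H2-K1 (0.30), H2-D1 (0.04) and Tap2 (0.02) were no longer negative. Across these scalings H2-T23, B2m and Tapbp were negative at 31 days, and with the hybridisation-control covariate H2-T23 (-0.99) remained so while B2m was 2.54 and Tapbp 0.51, none of them passing. The control level and the groups do not overlap, so the group and the array-wide difference cannot be told apart by that fit.

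**Figure D3:**
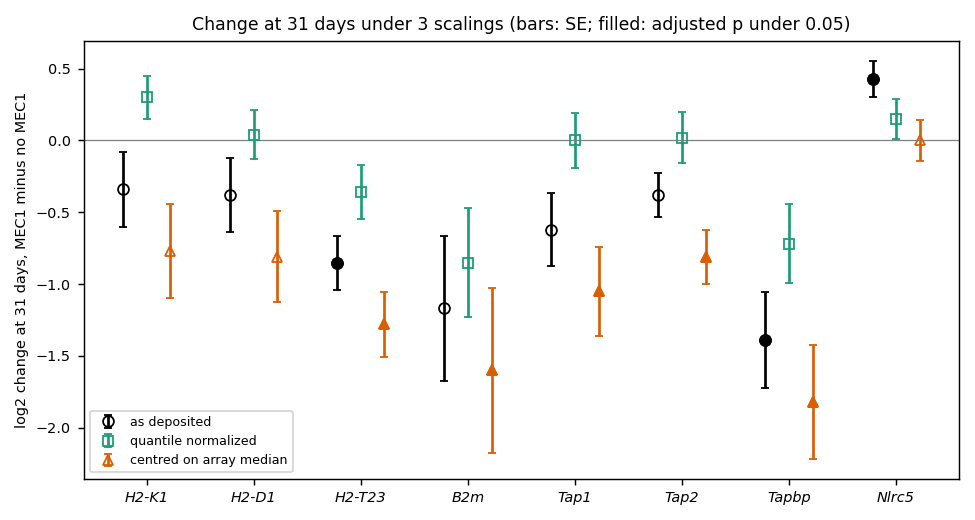
Log2 change at 31 days (mice with MEC1 minus mice without MEC1, vertical axis) of each gene with the values as deposited, quantile normalized and centred on the array median; bars are SE and filled points have an adjusted p under 0.05. No point is filled under quantile normalization, and 5 are filled, all below 0, after centring.

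The difference between the days was tested directly, as the 31 day change minus the 21 day change, and none of the 8 genes passed. All 8 differences were negative, -0.71 to -0.01, with adjusted p of 0.502 to 0.977 and none with an unadjusted p under 0.05; 0.00269% of all clusters passed. The largest was that of Tapbp, -0.71, with a 95% interval of -1.75 to 0.33. Clusters of like brightness had medians from -0.65 near H2-D1 to -0.14 near Tap2, and 0.20 near Nlrc5. The median was -0.54 near Tapbp and -0.57 near H2-K1. In mice without MEC1, 31 days against 21 days gave changes of 0.04 to 0.32 in the 8 genes, none passing or with an unadjusted p under 0.05, and 0.00806% of clusters passed. For Tapbp the order of group means was 8.16 ± 0.641 with MEC1 at 31 days, 8.79 ± 0.424 with MEC1 at 21 days, 9.47 ± 0.346 without MEC1 at 21 days and 9.55 ± 0.316 without MEC1 at 31 days (SD, n = 3 each). Of these neighbours, the 2 means with MEC1 differed by about their SDs, and the 2 means without MEC1 by less. For H2-T23 the order was 6.28 ± 0.127 with MEC1 at 31 days, 6.34 ± 0.241 with MEC1 at 21 days, 6.84 ± 0.325 without MEC1 at 21 days and 7.13 ± 0.102 without MEC1 at 31 days, and the lowest 2 did not differ beyond their spread.

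Over the 12 arrays, H2-K1 and H2-D1 followed each other most closely of the members, with a root mean square difference of 0.147 log2 after each gene was centred on its own mean. H2-K1 and Tap1 came next at 0.205, then H2-D1 and Tap1 at 0.223. These distances describe levels on arrays that also share group and array-wide differences. By the same measure over 12 arrays, each member was compared with about 13990 named genes. The nearest was Psmb1, a proteasome subunit gene, for B2m at 0.15, Atp6v1e1, a subunit of the vacuolar proton pump, for Tapbp at 0.109, and Nmnat3, an enzyme of NAD synthesis, for H2-T23 at 0.087. For Nlrc5 it was Ptpdc1 at 0.0791, for Tap1 Tbl3 at 0.114, for Tap2 Ccdc61 at 0.0823, and for H2-K1 and H2-D1 the pseudogenes Rpl31-ps10 (0.0959) and Ppp1r2-ps4 (0.13).

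Around the core genes, the other class I heavy chain and class I-like genes were measured on clusters of their own for 13 of 18 listed. At 31 days 3 of the 13 fell and 1 rose, with a median of -0.25 (2 and none after quantile normalization), and at 21 days 2 fell, with a median of -0.17. Of all clusters, 21.1% passed lower at 31 days and 2.51% at 21 days, so the 31 day count was near the background. Without the third array with MEC1 the 31 day median was -0.12. Fcgrt, the class I-like neonatal Fc receptor that binds IgG and albumin and pairs with B2m, read 5.96, 6.21 and 6.19 with MEC1 at 21 days, against 7.16, 7.74 and 7.63 without MEC1. At 31 days it read 5.58, 5.96 and 5.93 with MEC1, against 7.67, 7.34 and 7.72 without MEC1, with a wide gap between the groups on both days. Its changes were -1.39 ± 0.192 (SE, adjusted p = 0.00595) at 21 days and -1.75 ± 0.192 (adjusted p = 0.00035) at 31 days. They did not pass with the control covariate (-1.76 and -2.40). H2-T24, a nonclassical heavy chain gene, was -1.25 ± 0.293 (adjusted p = 0.0411) at 21 days, which did not pass after quantile normalization (-0.91) or with any of 5 of the 6 arrays left out, and -1.49 ± 0.293 (adjusted p = 0.00352) at 31 days. H2-T10 was -0.60 (adjusted p = 0.0371) at 31 days, -0.04 after quantile normalization, and lost the threshold with any of 4 of the 6 arrays left out, among them the third with MEC1 (-0.49, adjusted p = 0.122). H2-M2, the gene that rose, was 0.76 ± 0.196 (adjusted p = 0.0116) and lost the threshold under quantile normalization (0.43) and centring (0.33).

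The chaperones that hold class I chains while they fold fell widely at 31 days. Of the 7 measured genes for loading chaperones and peptide trimming, 6 fell, none rose and the median was -1.08, beside 21.1% of all clusters passing lower. This list was not compared with clusters of like brightness. Among clusters near H2-K1, H2-D1 and B2m, 57.1%, 53% and 29.5% passed lower, with medians of -1.02, -1.02 and -0.39. Calr (calreticulin, a lectin chaperone of the loading complex) read 13.49, 12.65 and 11.43 with MEC1 at 31 days, against 14.16, 13.99 and 13.97 without MEC1, and its groups did not overlap. Its change was -1.52 ± 0.393 (SE, adjusted p = 0.0119), and -0.97 (adjusted p = 0.0167) without the third array with MEC1. The change of Hspa5 (BiP, the main chaperone of the endoplasmic reticulum) was -1.62 ± 0.32 (adjusted p = 0.00364), that of Uggt1, the glucosyltransferase that returns misfolded glycoproteins to the lectin chaperones, -1.93 ± 0.403 (adjusted p = 0.00463), and that of Canx (calnexin, which binds new heavy chains) -1.08 ± 0.245 (adjusted p = 0.00674). The member of the list that did not pass was Tapbpl (0.08), a tapasin-related editor of peptides. At 21 days none of the 7 passed, also at an unadjusted p under 0.05, and the median was 0.06. The count at 31 days was 4 of the 7 without the third array with MEC1, and also 4 with the compared arrays only; after quantile normalization 4 fell and 1 rose.

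Of 6 measured genes for the immunoproteasome and its activator, 2 fell at 31 days and the median was -0.50, a count near the background of 21.1% of clusters passing lower. Pomp, which assists proteasome assembly, was -1.98 ± 0.466 (SE, adjusted p = 0.00789), and Psme3, the gamma subunit of the proteasome activator family, was -0.77 ± 0.201 (adjusted p = 0.0126), and did not pass after quantile normalization (-0.38, adjusted p = 0.103). The catalytic subunit gene Psmb9, whose promoter window overlaps that of Tap1, read 6.86, 6.75 and 6.5 with MEC1 at 31 days, against 6.56, 6.45 and 6.56 without MEC1, a change of 0.18 (adjusted p = 0.405) between overlapping groups. Psmb8, the catalytic subunit gene of the same gene cluster, was -0.24 (adjusted p = 0.295), and its groups did not overlap. Psmb10, the third catalytic subunit gene, was -0.86 (adjusted p = 0.0815), with every mouse with MEC1 (8.31, 7.83 and 7.15) below those without MEC1 (8.63, 8.54 and 8.7), and Psme1, an activator subunit that interferon raises, was 0.10 (adjusted p = 0.54). At 21 days none of the 6 passed, with 1 at an unadjusted p under 0.05. Psmb9 was 0.52 ± 0.172 (adjusted p = 0.111) on that day, higher with MEC1 without overlap between the groups. After quantile normalization 2 of the 6 passed higher and none lower at 21 days, and 2 higher and 1 lower at 31 days.

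Regulators of class I genes had a median of -0.82 at 31 days, when 11 of the 14 measured fell and none rose, beside 21.1% lower over all clusters. These genes were not compared with clusters of like brightness. Near H2-T23, Tap1 and Tapbp, 45.7%, 54.7% and 57.4% of clusters passed lower, with medians of -0.68, -0.82 and -0.99. Irf8, a factor of the monocyte lineage and of the interferon response, read 9.39, 9.03 and 8.16 with MEC1, against 11.48, 11.47 and 11.48 without MEC1. Every mouse with MEC1 was lower, and the change was -2.62 ± 0.378 (SE, adjusted p = 0.00088). Irf9, the DNA-binding part of the type I interferon complex with Stat2, was -1.24 ± 0.292 (adjusted p = 0.0078), and did not pass after quantile normalization (-0.61, adjusted p = 0.0783). Stat2 itself was -2.29 ± 0.46 (adjusted p = 0.0039), and Nfya, a subunit of the NF-Y factor that binds the Y box, was -1.49 ± 0.242 (adjusted p = 0.00149). Irf1, the interferon gamma-induced activator of class I promoters, was -0.01 (adjusted p = 0.959), and Ciita, the class II counterpart of Nlrc5, was -0.01 (adjusted p = 0.942). At 21 days 1 gene, Irf2, fell (-1.02 ± 0.223, adjusted p = 0.0339), and it did not pass after quantile normalization (-0.66) or with any of 4 of the 6 arrays left out. After quantile normalization 4 of the 14 fell at 31 days, and 8 fell without the third array with MEC1.

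Among interferon receptors and their signalling genes, 6 of 9 tested fell at 31 days and 1 rose, with a median of -1.10, beside 21.1% lower and 22.6% higher over all clusters. The median was -0.69 without the third array with MEC1, and 3 fell when the compared arrays alone were fitted. A comparison with clusters of like brightness was not made for this list. Of clusters near H2-K1 and H2-D1, 57.1% and 53% passed lower. Jak1, a kinase bound to both interferon receptors, read 11.04, 11.19 and 10.19 with MEC1, against 12.29, 12.22 and 12.19 without MEC1, and every mouse with MEC1 was lower. Its change was -1.43 ± 0.228 (SE, adjusted p = 0.00137), and that of Ifnar2, a chain of the type I interferon receptor, -2.02 ± 0.415 (adjusted p = 0.00432). Tyk2, a kinase of the type I interferon receptor, was -1.40 ± 0.247 (adjusted p = 0.00211). Ifngr1, the ligand-binding chain of the interferon gamma receptor, was -1.30 ± 0.357 (adjusted p = 0.0155), -0.78 without the third array with MEC1, and did not pass with the compared arrays only (adjusted p = 0.0506). The gene that rose was Ifnb1 (interferon beta), at 1.14 ± 0.25 (adjusted p = 0.00573), from dim values of 5.09, 4.79 and 5.4 with MEC1, against 4.2, 4.23 and 3.43 without MEC1. The interferon gamma gene did not pass the filter on dim clusters. None of the 9 passed at 21 days, with 5 at an unadjusted p under 0.05. After quantile normalization 4 fell and 1 rose at 31 days, and with the hybridisation-control covariate no gene of these 5 pathway lists passed on either day.

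**Figure D4:**
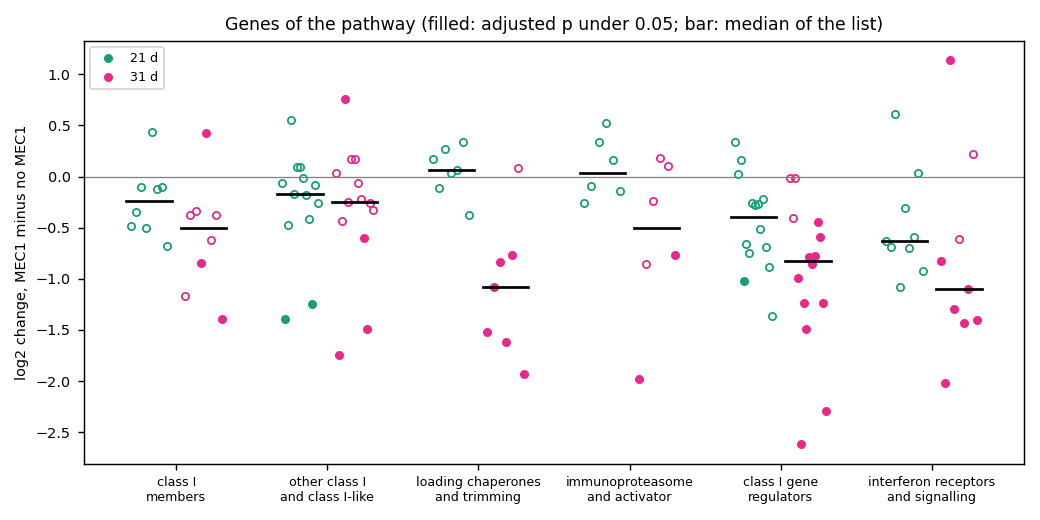
Log2 change (mice with MEC1 minus mice without MEC1, vertical axis) of each tested gene in the member list and in 5 pathway lists at 21 and 31 days; filled points have an adjusted p under 0.05 and black bars are list medians. At 31 days the filled points lie below 0 except Nlrc5, H2-M2 and Ifnb1.

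Markers of cell types moved with the groups beside these genes on both days. Of the measured markers at 31 days, 7 of 9 monocyte and macrophage genes, 4 of 11 neutrophil genes, 9 of 9 erythroid genes, 4 of 7 dendritic cell genes and 2 of 4 endothelial and stromal genes fell, and none of these rose, beside 21.1% lower over all clusters. Markers were not compared with clusters of like brightness. At 21 days 4 of 9 erythroid genes (median -2.87), 2 of 9 monocyte and macrophage genes and 2 of 7 dendritic cell genes fell, beside 2.51% over all clusters, and the erythroid mean was 6.7 to 9.87 with MEC1 and 9.89 to 11.45 without MEC1. The neutrophil mean at 31 days was 12.01 to 14.28 with MEC1, with a median of 14.25, and 14.3 to 14.66 without MEC1. The lowest, 12.01, was that of the third array. On the other arrays with MEC1, S100a8, S100a9, Camp and Retnlg read above every mouse without MEC1. The 4 genes that fell (Ly6g, Ltf, Elane and Mpo) read below every mouse without MEC1 there. On that day the dendritic cell mean was 4.67 to 4.95 with MEC1 and 5.82 to 6.16 without MEC1. At 21 days the neutrophil means overlapped, 13.55 to 14.03 with MEC1 and 13.34 to 14.32 without MEC1. Of 3 T and NK cell genes tested 1 rose, and 5 of that list's 8 genes did not pass the filter on dim clusters. The B cell list, relevant because MEC1 is a B cell line, had 2 genes that rose and 1 that fell of 5 tested at 31 days. Pax5 (2.23) and Cd79a (0.78) rose and Ighm fell (-4.54), so the list mean combined opposite changes. That mean was 5.48 to 5.73 with MEC1 and 5.71 to 5.76 without MEC1 at 31 days. At 21 days it was 5.99 to 6.04 with MEC1 and 5.73 to 5.78 without MEC1. The part of these cell types, and of human transcripts on the mouse probes, in the class I results was not tested.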

How the data were processed

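The authors deposited log2 intensities of 72688 features on 12 arrays. Affymetrix Expression Console and RMA are named in the submitters' processing notes, without versions; their settings and the genome build are not given in the sources used here. The distributions of the arrays differ as deposited, with array medians of 3.93 to 4.4 with MEC1 and 3.8 to 3.93 without MEC1, which can move all genes of an array together. The deposited log2 values were used as they stand after 6732 control features were left out. Of 65956 transcript clusters, 31216 had 1 gene symbol, 1534 several and 33206 none in the platform annotation, and 1135 symbols were updated through RefSeq. Each gene was read from the cluster with the highest mean; the clusters of H2-T23 and Nlrc5, each with a further annotated transcript, were admitted because each is that gene's sole cluster.

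Testing was limited to clusters brighter than their array's median on at least 3 arrays, 37240 in number. Means of 4 groups were fitted with limma 3.58.1 in R 4.3.3 over all 12 arrays, with moderated two-sided tests, Benjamini-Hochberg adjustment over all tested clusters and a threshold of 0.05. The fit was tested on simulated data. The number of arrays, 3 mice a group, limits the precision. All 8 member genes were named, with up to 4 genes from each pathway list at 31 days and up to 2 at 21 days, those of largest change that passed and whose groups did not overlap; other genes with values, among them Tapbpl, Psmb9, Psmb8, Psmb10, Psme1, Irf1, Ciita and Ifnb1, were chosen after their values were seen. The members, lists and promoter motifs were chosen with earlier results of these data known. Alternatives changed the filter, scaling, weights, moderation, arrays included, control covariate and replicate number; those for the pathway lists were added after seeing the data. Replicate numbers do not pair mice, since each sample has its own mouse number; deviations from group means of same-numbered arrays correlated at -0.36 to 0.42 over 18 pairs.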

Additional observations from a re-analysis of the deposited data

How the results depend on the processing

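With 3 mice a group and array-wide differences between the groups, calls depended on scaling. Clusters called at 21 days, 1615, were 1066 after quantile normalization, 15923 with array weights, 454 with the compared arrays only, 4 with the hybridisation-control covariate, 831 with the replicate block and 330 to 2883 with 1 array left out; 5 members passed with array weights. At 31 days 16297 clusters were called, 8430 higher and 7867 lower; the count was 30065 without the filter (21744 higher, 8321 lower), 10483 with the filter at the 70th percentile (3046 higher, 7437 lower), 10646 after quantile normalization (5026 higher, 5620 lower), 7 with the covariate, 10647 to 16196 with 1 array left out, and 2785 higher and 13739 lower after centring. The 3 members called at 31 days were 0 after quantile normalization, 5 after centring, 0 with the covariate, and 2 to 4 with 1 array left out. The difference between the days, 1 cluster, gave 17 after quantile normalization, 1573 with array weights, 4 with the covariate and 1 to 5 with 1 array left out. The 3 clusters that differed between days without MEC1 were 10, 266 and 15 under those same settings, 0 with the compared arrays only and 1 to 12 with 1 array left out. The replicate block called 14484 clusters and the same number of members, 3, at 31 days.

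Signs turned mainly under quantile normalization and the covariate. Under quantile normalization H2-K1 was 0.15, Tap1 0.22 and Tap2 0.13 at 21 days, H2-K1 0.30, H2-D1 0.04 and Tap2 0.02 at 31 days, and the difference between days was 0.15 for H2-K1 and 0.23 for H2-D1. With the covariate H2-K1 was 0.91, H2-D1 0.55, B2m 1.61, Tap1 0.63 and Tapbp 0.39 at 21 days, and H2-K1 1.44, H2-D1 1.20, B2m 2.54, Tap1 0.71 and Tapbp 0.51 at 31 days. With it the difference between days was 0.53 for H2-K1, 0.65 for H2-D1, 0.93 for B2m, 0.08 for Tap1, 0.11 for Tapbp and 0.02 for Nlrc5, and the change between the groups without MEC1 was -0.14 for H2-K1, -0.07 for H2-D1, -0.29 for B2m and -0.11 for Tapbp. Among pathway genes at 31 days it gave H2-T24 0.31, H2-T10 0.07, Uggt1 1.54, Hspa5 0.96, Calr 1.86, Canx 0.83, Pomp 1.40, Stat2 1.18, Nfya 0.04, Ifnar2 1.60, Jak1 0.25 and Ifngr1 1.33. Centring turned Nlrc5 at 31 days to 0.00 (adjusted p = 1). Array weights turned the difference between days to 0.06 for H2-K1, 0.38 for H2-D1 and 0.24 for B2m, and the change without MEC1 to -0.03 for H2-K1, -0.01 for H2-D1, -0.18 for B2m and -0.08 for Tapbp. None of these turned values passed, and the cause was not tested.

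With 1 array left out, the change at 21 days ranged over -0.27 to 0.09 for H2-K1 and -0.33 to 0.03 for Tap1. The difference between days ranged over -0.43 to 0.05 for H2-K1, -0.25 to 0.27 for H2-D1 and -0.08 to 0.04 for Nlrc5. The change without MEC1 ranged over -0.07 to 0.16 for H2-K1, -0.07 to 0.24 for H2-D1, -0.19 to 0.22 for B2m and -0.12 to 0.23 for Tapbp.

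The replicate numbers do not pair the mice, and Nlrc5 was not tested with the 70th percentile filter. The mean over all clusters of a gene was not run, since each member has 1 cluster.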
